A study of Mus musculus with 8 samples.

Results

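The 10 genes described here are Cd68, Csf1r, Adgre1, C1qa, C1qb, C1qc, Cd74, H2-Aa, H2-Ab1 and H2-Eb1, a set of macrophage and antigen-presentation genes picked by symbol from the 54532 genes of an RNA-seq table. Each symbol matched 1 gene, and all 10 passed the minimum of FPKM above 1 in at least 1 library that 21175 genes passed. The table holds 8 libraries of mouse spermatocytes on a C57BL/6J background, 1 for each combination of stage, genotype and age. The stages were pachytene (P) and leptotene or zygotene (L/Z), and the ages were postnatal day (PD) 24 and PD 52. MFN2 WT controls were labelled Mfn2 loxp/loxp and MFN2 cKO mice Mfn2 loxp/loxp; Stra8-Cre, so both genotypes carry the floxed allele of mitofusin 2, a protein of the mitochondrial outer membrane. The Stra8 promoter drives Cre in male germ cells, and macrophages and other somatic cells of the testis are not its target. The spermatocytes were enriched by sedimentation on a BSA gradient, which sorts cells by size, and their purity was judged by diameter and shape. Methods name littermates without Cre, with 1 or both alleles floxed, as controls, and the number of animals behind a library is not given in the sources used here. No group had a second library.

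Macrophages are the most common leukocytes of the testis, where they lie between the tubules beside the Leydig cells and on the tubule wall. They depend on signalling through the CSF1 receptor, which Csf1r encodes, and they make the 3 chains of C1q, the starter of the classical complement pathway. Macrophages that present antigen also carry MHC class II, an alpha and a beta chain that assemble on the invariant chain CD74 before peptide is loaded. Cd68 encodes a lysosomal glycoprotein of phagocytes, and Adgre1 encodes the F4/80 antigen.

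The 3 C1q genes lie side by side on the minus strand of chromosome 4, with C1qb at chr4:136880129-136886187, C1qc at chr4:136889804-136893065 and C1qa at chr4:136895917-136898803 on GRCm38. H2-Ab1 (chr17:34263209-34269418, plus strand), H2-Aa (chr17:34282744-34287827, minus strand) and H2-Eb1 (chr17:34305877-34316199, plus strand) are neighbours in the class II region of chromosome 17. Adgre1 (chr17:57358691-57483527, plus strand) is on the same chromosome, and Cd68 (chr11:69664213-69666153, minus strand) is on chromosome 11. Each of these is listed as protein-coding, and the coordinates span the whole gene.

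RefSeq promoter windows on GRCm38.p6 were at hand for 5 of the 10 genes, and those of 4 are shown because the class II genes moved together and apart from C1qb and Cd68. The window of C1qc was left out, since 151 of its bases lie inside the listed gene. Each run is the 250 bases before the RefSeq start, 5′ to 3′ on the strand of the gene, at chr17:34287824-34288073 for H2-Aa, chr17:34305617-34305866 for H2-Eb1, chr4:136886201-136886450 for C1qb and chr11:69666171-69666420 for Cd68. Capitals mark CCAAT or its reverse complement ATTGG, which is the core of the Y box of class II promoters, and GAGGAA or its reverse complement TTCCTC, a core bound by the macrophage factor PU.1. These motifs were chosen after the sequences were seen.
H2-Aa: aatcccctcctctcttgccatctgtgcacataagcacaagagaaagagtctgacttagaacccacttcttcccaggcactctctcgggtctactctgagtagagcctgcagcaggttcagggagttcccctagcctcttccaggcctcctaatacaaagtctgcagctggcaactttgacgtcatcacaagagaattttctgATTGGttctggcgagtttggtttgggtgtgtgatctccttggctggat
H2-Eb1: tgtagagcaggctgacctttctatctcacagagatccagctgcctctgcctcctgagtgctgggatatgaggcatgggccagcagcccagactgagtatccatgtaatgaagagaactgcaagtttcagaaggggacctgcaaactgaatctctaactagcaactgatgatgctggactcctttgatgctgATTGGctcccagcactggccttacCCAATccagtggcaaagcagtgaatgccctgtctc
C1qb: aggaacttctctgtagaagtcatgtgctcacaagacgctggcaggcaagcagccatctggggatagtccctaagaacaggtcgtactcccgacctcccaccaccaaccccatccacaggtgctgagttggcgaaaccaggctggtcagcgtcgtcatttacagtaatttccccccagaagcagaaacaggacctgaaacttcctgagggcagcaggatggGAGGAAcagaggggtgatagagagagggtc
Cd68: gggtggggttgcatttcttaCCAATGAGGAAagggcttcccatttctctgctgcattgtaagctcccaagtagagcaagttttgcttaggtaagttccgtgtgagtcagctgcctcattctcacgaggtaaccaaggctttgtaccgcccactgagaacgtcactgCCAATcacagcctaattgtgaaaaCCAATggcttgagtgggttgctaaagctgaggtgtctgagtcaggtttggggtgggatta
ATTGG begins 48 bases before the start of H2-Aa and 59 bases before that of H2-Eb1, where CCAAT also begins 35 bases before the start. Cd68 holds CCAAT at 230, 84 and 60 bases before its start and GAGGAA at 225, next to the first of these. C1qb holds GAGGAA at 30 bases and neither form of CCAAT. Of all 32851 windows, 33.8% hold CCAAT on either strand and 23.3% hold GAGGAA on either strand in the same 250 bases, so these matches are a description and not a site of binding.

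Reads on genes numbered from 14340665 to 20379950 a library. Mfn2 was at 62.2 to 97.5 FPKM in MFN2 WT and at 34.3 to 50.1 FPKM in MFN2 cKO, with a ratio of cKO to WT from 0.418 in L/Z at PD 24 to 0.805 in P at PD 52. The 12 pachytene genes summed to 2379 to 4280 FPKM and the 12 leptotene and zygotene genes to 351 to 580 FPKM. Of the latter, 4 were lower and 6 higher in P than in L/Z at an adjusted p under 0.05. Their sum was higher in P than in L/Z, by 1.40-fold in MFN2 WT and 1.12-fold in MFN2 cKO at PD 24, and by 1.38-fold and 1.18-fold at PD 52. This list thus ran against the stage labels, which are used here as given. The 12 genes of round and elongating spermatids, which are no part of either stage, summed to 135.5 to 20202 FPKM.

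The 10 genes were low in these preparations, with 241 to 7068 reads in all 10 together in a library. The library of MFN2 cKO L/Z spermatocytes at PD 52 had the highest level of each of the 10 genes. MFN2 WT P spermatocytes at PD 52 had the lowest level of 9 genes, and for Cd74 MFN2 cKO P spermatocytes at PD 52 were lower still. In bulk RNA, fewer cells of a type and less RNA per cell cannot be told apart.

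Csf1r, the receptor for CSF1 and IL-34, was at 2.05 and 1.09 FPKM in the MFN2 WT L/Z libraries of PD 24 and PD 52 and at 6.27 and 9.58 FPKM in the MFN2 cKO L/Z libraries. In P spermatocytes it was at 0.720 and 0.153 FPKM in MFN2 WT and at 2.50 and 1.26 FPKM in MFN2 cKO. The cKO library was the higher one at each stage and age, and of the 7 neighbours in the order of its levels, 6 were separated by their counting intervals. The exception was MFN2 cKO P at PD 52 and MFN2 WT L/Z at PD 52.

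Cd68 was at 3.24 and 1.65 FPKM in MFN2 WT L/Z and at 6.64 and 7.95 FPKM in MFN2 cKO L/Z, again at PD 24 and then PD 52. In P spermatocytes it was at 2.88 and 0.694 FPKM in MFN2 WT and at 3.76 and 2.63 FPKM in MFN2 cKO. Its levels spanned an 11.4-fold range, and 5 of the 7 neighbours in its order were not separated by counting. Adgre1 was at 1.75 and 1.73 FPKM in MFN2 WT L/Z and at 3.29 and 5.96 FPKM in MFN2 cKO L/Z. In P it was at 0.827 and 0.693 FPKM in MFN2 WT and at 1.51 and 1.72 FPKM in MFN2 cKO, and the MFN2 cKO P library of PD 52 was not separated by counting from the MFN2 WT L/Z library of that age.

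C1qa, the A chain of C1q, was at 10.5 and 3.79 FPKM in MFN2 WT L/Z and at 29.0 and 35.3 FPKM in MFN2 cKO L/Z at PD 24 and PD 52. In P it was at 4.10 and 0.659 FPKM in MFN2 WT and at 8.43 and 2.38 FPKM in MFN2 cKO. The MFN2 cKO L/Z libraries stood above the other 6, and the WT P library at PD 52 held 11 reads. C1qb, the B chain, was at 8.66 and 5.96 FPKM in MFN2 WT L/Z and at 27.3 and 34.4 FPKM in MFN2 cKO L/Z. In P it was at 3.19 and 1.55 FPKM in MFN2 WT and at 7.41 and 3.04 FPKM in MFN2 cKO.

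C1qc, the C chain, was at 4.06 and 1.73 FPKM in MFN2 WT L/Z and at 13.3 and 13.8 FPKM in MFN2 cKO L/Z. In P it was at 1.85 and 0.161 FPKM in MFN2 WT and at 4.12 and 0.928 FPKM in MFN2 cKO, with 5 reads in the lowest library. The 3 chains kept the same order of high and low libraries to a large degree. On the log2(FPKM + 1) scale the correlation between any 2 C1q genes was 0.978 to 0.997 over the 8 libraries, which share their depth and cell content between genes.

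Cd74, the invariant chain, was at 19.7 and 19.4 FPKM in MFN2 WT L/Z at PD 24 and PD 52, at 14.1 FPKM in MFN2 cKO L/Z at PD 24 and at 105 FPKM in MFN2 cKO L/Z at PD 52. In P it was at 3.62 and 1.41 FPKM in MFN2 WT and at 3.62 and 1.27 FPKM in MFN2 cKO. The L/Z cKO library of PD 52 held 62.5% of the summed FPKM of Cd74 over the 8 libraries.

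H2-Aa, the alpha chain of I-A, was at 3.53 and 2.96 FPKM in MFN2 WT L/Z and at 3.85 and 28.5 FPKM in MFN2 cKO L/Z. In P it was at 0.635 and 0.366 FPKM in MFN2 WT and at 0.545 and 0.441 FPKM in MFN2 cKO, from 11 to 24 reads. H2-Eb1, the beta chain of I-E, was at 5.81 and 6.83 FPKM in MFN2 WT L/Z and at 4.76 and 43.2 FPKM in MFN2 cKO L/Z. In P it was at 1.59 and 0.421 FPKM in MFN2 WT and at 1.04 and 1.28 FPKM in MFN2 cKO.

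H2-Ab1, the beta chain of I-A, was at 9.54 and 9.02 FPKM in MFN2 WT L/Z and at 6.16 and 32.9 FPKM in MFN2 cKO L/Z. In P it was at 5.30 and 3.24 FPKM in MFN2 WT and at 5.12 and 3.45 FPKM in MFN2 cKO. H2-Ab1 was thus the class II gene with the smallest span, 10.2-fold, against 77.9-fold for H2-Aa and 102-fold for H2-Eb1. Between the 4 class II genes the correlation over the 8 libraries was 0.959 to 0.984 on the log2(FPKM + 1) scale, and between class II and C1q genes it was 0.699 to 0.851.

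**Figure D1:**
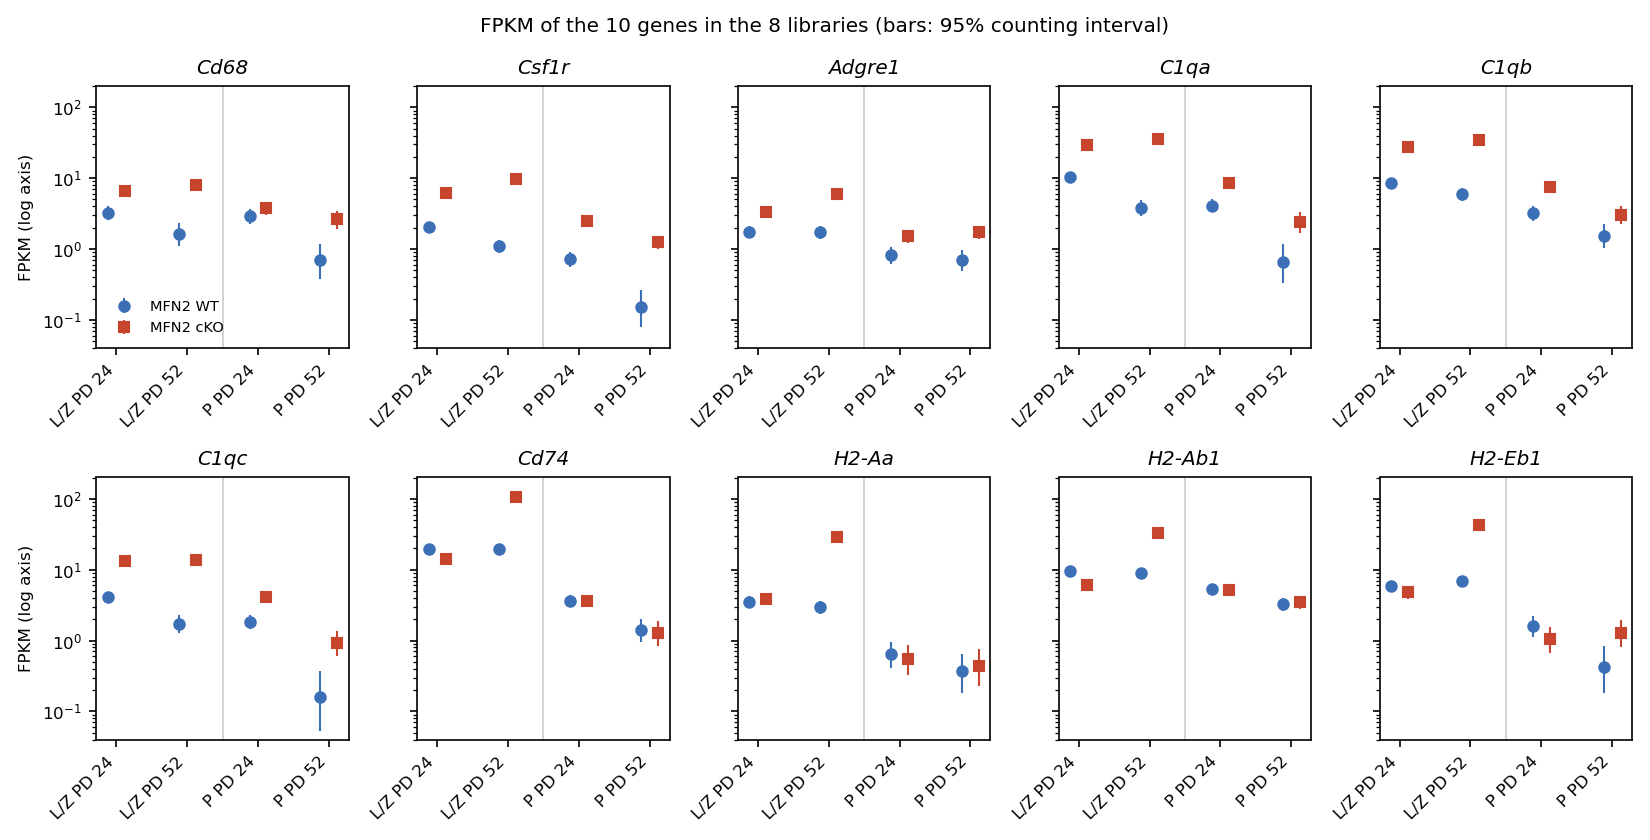
FPKM on a log axis of each of the 10 genes in the 8 libraries, with MFN2 WT as blue circles, MFN2 cKO as red squares and bars for the 95% counting interval of the reads. The cKO square lies above the WT circle at each stage and age for Cd68, Csf1r, Adgre1 and the C1q genes, while for Cd74 and the H2 genes it is far above in L/Z at PD 52, where Cd74 reached 105 FPKM, and for H2-Eb1 it is also above in P at PD 52.

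The first comparison asked how P and L/Z spermatocytes differ. Each of the 10 genes was lower in P than in L/Z, and the difference passed the test for each. H2-Aa passed the minimum through the L/Z libraries alone, with 0.366 to 0.635 FPKM in P, so its call is not independent of the filter. Cd74 fell by 3.12 ± 0.56 on the log2(FPKM + 1) scale (SE, 4 pairs of libraries with the same age and genotype). Adgre1 fell by 0.85 ± 0.17, and Cd68, with the smallest of the 10 differences, fell by 0.69 ± 0.20. The median difference of the 10 genes was -1.75, beside -0.04 for all 21175 genes tested.

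Called genes had an adjusted p under 0.05 in limma's moderated test with the pair as a block, with Benjamini-Hochberg adjustment over all genes tested. Among all genes 16% were called lower in P and 12.4% higher, and of the 10 genes 10 were called lower and 0 higher. For the lineage genes the adjusted p was 0.0407 for Cd68, 0.0123 for Csf1r and 0.0126 for Adgre1. For the C1q genes, whose differences were -1.95 ± 0.35, -1.88 ± 0.31 and -1.62 ± 0.32 for C1qa, C1qb and C1qc, it was 0.00808, 0.00616 and 0.0115. For Cd74, H2-Aa, H2-Ab1 and H2-Eb1 it was 0.00842, 0.0134, 0.0489 and 0.00920.

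The FPKM ratio of P to L/Z was below 1 in 4 of 4 pairs for each gene. For Cd74 the 4 pairs gave 5.44-fold lower FPKM in P in MFN2 WT at PD 24, 3.90-fold in MFN2 cKO at PD 24, 13.7-fold in MFN2 WT at PD 52 and 82.8-fold in MFN2 cKO at PD 52. For C1qb the same pairs gave 2.72-fold, 3.68-fold, 3.85-fold and 11.3-fold. The MFN2 cKO pair of PD 52 had the widest gap for each of the 10 genes. For Cd68 the interval of the ratio reached above 1 in MFN2 WT at PD 24 (0.888, 95% counting interval 0.636 to 1.24), and for H2-Ab1 in MFN2 cKO at PD 24 (0.831, 0.666 to 1.04).

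Without that MFN2 cKO pair of PD 52 the direction held for the 10 genes and 8 were called, with H2-Ab1 and Cd68 lost. Cd68 lost its call without any 1 of the 4 pairs, and H2-Ab1 kept it only without the MFN2 cKO pair of PD 24. Without the block for the pair 1 of the 10 genes was called (Cd74), and with genes of low FPKM kept in the test 2 were (C1qa and C1qb). With a pseudocount of 0.1 H2-Ab1 lost its call (adjusted p = 0.0502).

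The other cell types that these preparations can hold also differed between the stages, and their part in the result was not tested. Of 11 peritubular myoid genes past the minimum 11 were lower in P, with summed FPKM of the 12 listed of 61.6 to 93.6 in P and 219 to 503 in L/Z. Of 12 spermatid genes 11 were lower in P, with a sum of 135.5 to 5001 in P and 487 to 20202 in L/Z. Of 11 Sertoli cell genes 11 were higher in P, with a sum of 358 to 963 for the 12 listed in P and 36.7 to 308 in L/Z, and of 11 Leydig cell genes 2 were higher and 0 lower.

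The second comparison set MFN2 cKO against MFN2 WT libraries of the same stage and age. Csf1r, Cd68, Adgre1, C1qa, C1qb and C1qc had more FPKM in MFN2 cKO than in MFN2 WT in 4 of 4 pairs. Cd74, H2-Aa, H2-Ab1 and H2-Eb1 were several-fold higher in L/Z at PD 52, as H2-Eb1 also was in P at PD 52, and close to or below MFN2 WT in the L/Z pair of PD 24.

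Among the lineage genes Csf1r was 3.06-fold higher in MFN2 cKO in L/Z at PD 24 (95% counting interval 2.59 to 3.63) and 8.75-fold in L/Z at PD 52 (6.94 to 11.2). In P it was 3.47-fold higher at PD 24 (2.65 to 4.59) and 8.20-fold at PD 52 (4.47 to 16.5), the last from 12 reads in MFN2 WT. Cd68 was 1.31-fold to 4.82-fold higher, and its interval included 1 in P at PD 24. Adgre1 was 1.83-fold to 3.44-fold higher, with intervals above 1 in the 4 pairs.

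C1qa was 2.75-fold higher in L/Z at PD 24 (2.34 to 3.25), 9.32-fold in L/Z at PD 52 (7.11 to 12.4), 2.06-fold in P at PD 24 (1.57 to 2.70) and 3.62-fold in P at PD 52 (1.80 to 7.88). C1qb was 1.97-fold to 5.77-fold higher and C1qc 2.23-fold to 7.97-fold, and their intervals lay above 1 in 4 of 4 pairs. The highest ratio of each C1q gene was that of L/Z at PD 52.

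In L/Z at PD 52 Cd74 was 5.43-fold higher in MFN2 cKO (4.88 to 6.04), H2-Aa 9.63-fold (7.68 to 12.2), H2-Ab1 3.65-fold (3.14 to 4.26) and H2-Eb1 6.32-fold (5.21 to 7.72). In L/Z at PD 24 the ratio was 0.716 for Cd74 (0.624 to 0.821) and 0.646 for H2-Ab1 (0.534 to 0.781), both below 1 beyond counting error. There H2-Aa had a ratio of 1.09 (0.846 to 1.41) and H2-Eb1 one of 0.819 (0.625 to 1.07). In P the intervals of Cd74, H2-Aa and H2-Ab1 included 1 at both ages, and that of H2-Eb1 did so at PD 24 but not at PD 52, where the ratio was 3.04 (1.30 to 7.90) from 8 and 22 reads. These intervals cover counting error and not the spread between animals, since each group had 1 library.

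**Figure D2:**
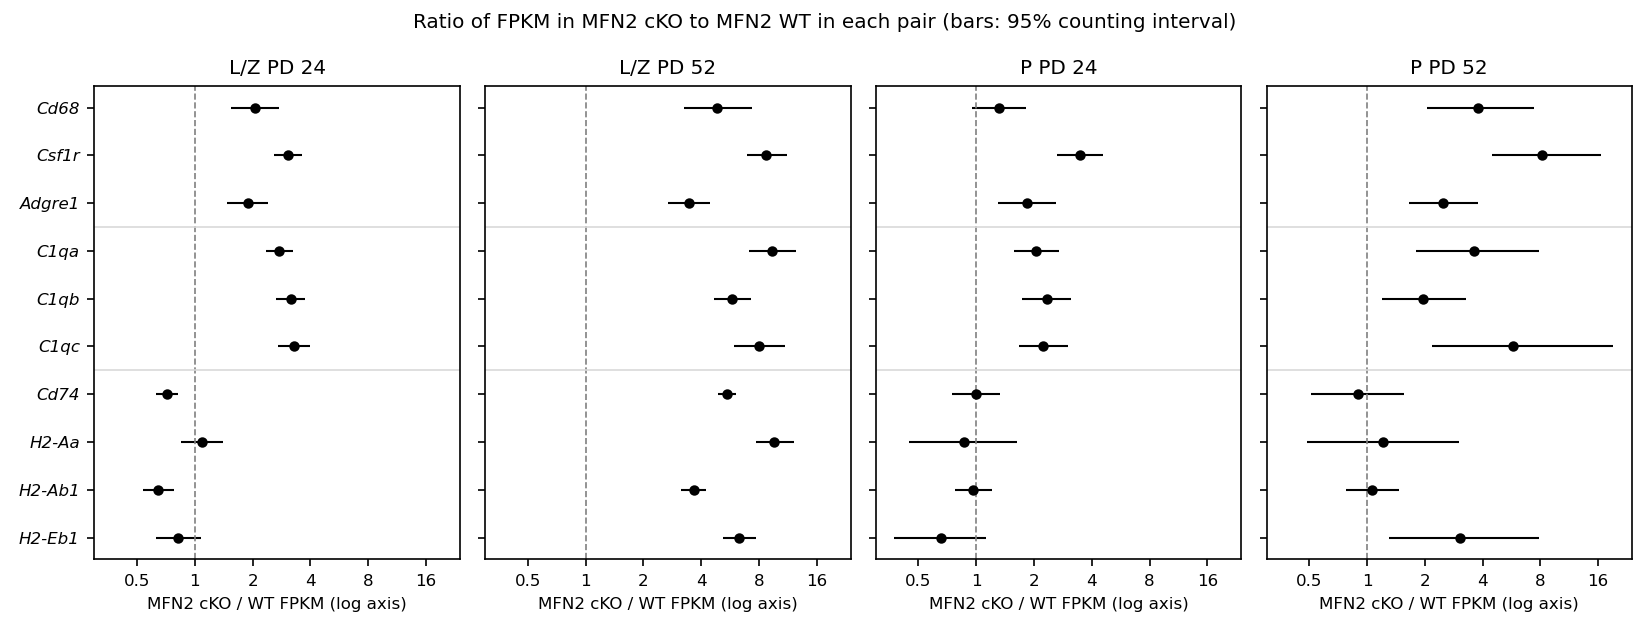
Ratio of FPKM in MFN2 cKO to MFN2 WT on a log axis for the 10 genes in each of the 4 pairs, with bars for the 95% counting interval and a dashed line at 1. In L/Z at PD 52 the 10 ratios run from 3.44 for Adgre1 to 9.63 for H2-Aa, whereas in the other 3 pairs the ratios of the 4 class II genes stay near or below 1 apart from H2-Eb1 in P at PD 52.

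On the log2(FPKM + 1) scale the MFN2 cKO library exceeded its WT pair 2-fold or more for 10 of the 10 genes in L/Z at PD 52, and for 4.83% of all genes with FPKM above 1 in either library. In L/Z at PD 24 the count was 4 (Csf1r, C1qa, C1qb and C1qc), beside 3.45% of all genes. In P at PD 24 it was 2 of the 9 genes past the minimum (Csf1r and C1qb), beside 1.79%, and in P at PD 52 it was 2 of 8 (Cd68 and C1qa), beside 5.21%. Csf1r at PD 24 and Cd68 and C1qa at PD 52 passed the minimum through the MFN2 cKO library alone. In MFN2 WT they were at 0.720, 0.694 and 0.659 FPKM, so these counts in P are not independent of the filter. The median difference of the 10 genes was 0.75 in L/Z at PD 24, 2.36 in L/Z at PD 52, 0.38 in P at PD 24 and 0.68 in P at PD 52, and the median of all genes with FPKM above 1 in either library was 0.08, 0.02, -0.10 and -0.05.

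Over the 4 pairs together none of the 10 genes was called in the test of genotype, where 0.132% of all genes were called higher (28) and 0.00472% lower (1). The difference of Csf1r was 1.40 ± 0.25 (SE, adjusted p = 0.180), the smallest adjusted p of the 10. C1qa, C1qb and C1qc differed by 1.55 ± 0.34, 1.39 ± 0.28 and 1.38 ± 0.29, with adjusted p of 0.270, 0.211 and 0.251. Cd68 and Adgre1 differed by 1.00 ± 0.24 and 0.78 ± 0.19, and Cd74, H2-Aa, H2-Ab1 and H2-Eb1 by 0.31 to 0.75 with SE of 0.36 to 0.50. The median of the 10 was 0.89, beside -0.04 for all genes tested.

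At an unadjusted p under 0.05 limma gave 6 of the 10 genes, the 3 lineage genes and the 3 C1q genes, where 6.93% of all genes passed that level. With limma-voom on the recovered reads Csf1r, C1qb and C1qc were called higher in MFN2 cKO, with adjusted p of 0.0243, 0.0401 and 0.0439, among 114 genes called in all. Over the 10 alternatives tried the adjusted p of Csf1r ran from 0.0243 to 1.00. An exact sign-flip test over 4 pairs cannot give a two-sided p below 0.125.

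**Figure D3:**
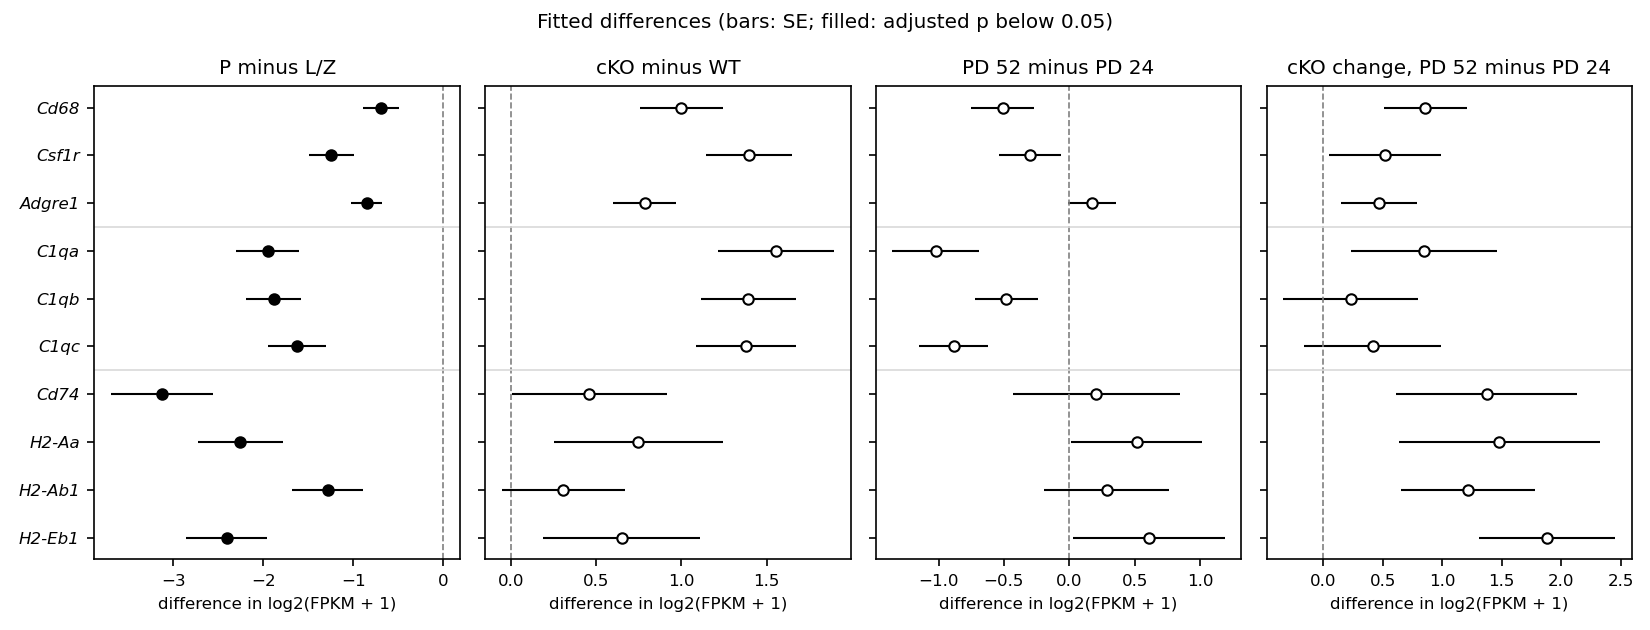
Fitted differences of the 10 genes on the log2(FPKM + 1) scale for stage, genotype, age and the difference of the genotype effect between ages, with bars for the SE and filled points for an adjusted p under 0.05. The 10 stage differences are filled and lie between -3.12 and -0.69, and no point is filled in the other 3 panels.

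The third comparison set PD 52 against PD 24 at the same stage and genotype. The C1q genes and Cd74, H2-Aa and H2-Ab1 were each lower at PD 52 in 3 of 4 pairs and higher in MFN2 cKO L/Z, with a larger ratio there for the class II genes. C1qa was 2.78-fold lower in MFN2 WT L/Z, 6.22-fold lower in MFN2 WT P and 3.53-fold lower in MFN2 cKO P, and its ratio was 1.22 (95% counting interval 1.08 to 1.38) in MFN2 cKO L/Z. C1qc was 2.34-fold, 11.5-fold and 4.44-fold lower in the same 3 pairs, with a ratio of 1.04 in MFN2 cKO L/Z (0.906 to 1.19).

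In MFN2 cKO L/Z the class II genes were much higher at PD 52, with ratios of 7.45 for Cd74 (6.65 to 8.36), 7.40 for H2-Aa (6.13 to 9.0), 5.34 for H2-Ab1 (4.54 to 6.32) and 9.06 for H2-Eb1 (7.35 to 11.3). In MFN2 WT L/Z their ratios were 0.983, 0.838, 0.946 and 1.17, and each of these intervals included 1. In P Cd74 was 2.56-fold lower at PD 52 in MFN2 WT and 2.85-fold lower in MFN2 cKO, and H2-Ab1 1.64-fold and 1.48-fold. H2-Eb1 was 3.78-fold lower at PD 52 in MFN2 WT P, and its ratio in MFN2 cKO P was 1.23 (0.652 to 2.30). The intervals of H2-Aa in P included 1.

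Over the 4 pairs none of the 10 genes was called for age, although 11.9% of all genes were called higher at PD 52 and 5.41% lower. The lowest adjusted p of limma was 0.0662, for C1qc (-0.89 ± 0.26), followed by 0.0799 for C1qa (-1.02 ± 0.33). These 2 genes also had an unadjusted p under 0.05, as did 37.6% of all genes, and limma-voom called 0 of the 10. Without the MFN2 cKO L/Z pair C1qa and C1qc were called lower at PD 52, with adjusted p of 0.0355 and 0.0392, among 1505 genes called, where the full fit called 3669.

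The difference of the genotype effect between PD 52 and PD 24 was above 0 for each of the 10 genes, from 0.23 ± 0.57 for C1qb to 1.88 ± 0.58 for H2-Eb1, with a median of 0.85 beside 0.02 for all genes. None of the 10 was called by limma on this scale, and of all genes 0.0142% were called higher (3) and 0% lower. H2-Eb1 (adjusted p = 0.275) and Cd68 (0.397) had an unadjusted p under 0.05, as did 12.5% of all genes. With limma-voom H2-Eb1, H2-Aa and Cd74 were called, with adjusted p of 0.0110, 0.040 and 0.0409, among 624 genes. Without the L/Z pair of PD 52 the difference was 0.14 for Cd74 and 0.07 for H2-Aa, and those of Csf1r, C1qa, C1qb and C1qc were below 0.

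The class II genes and the C1q genes were therefore set against each other within each library. The summed FPKM of Cd74, H2-Aa, H2-Ab1 and H2-Eb1 was 38.6 in MFN2 WT L/Z at PD 24 and 28.9 in MFN2 cKO, while that of the C1q genes was 23.2 and 69.6. In L/Z at PD 52 the class II sum was 38.2 in MFN2 WT and 210 in MFN2 cKO, and the C1q sum 11.5 and 83.5. In P the class II sum was 11.1 and 10.3 at PD 24 and 5.44 and 6.44 at PD 52, and the C1q sum 9.14 and 20.0 and then 2.37 and 6.35.

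The class II sum over the C1q sum was 1.66 in MFN2 WT and 0.415 in MFN2 cKO in L/Z at PD 24, and 3.33 and 2.51 in L/Z at PD 52. In P it was 1.22 and 0.518 at PD 24 and 2.30 and 1.01 at PD 52. The ratio was lower in MFN2 cKO in 4 of 4 pairs, although the class II sum itself was 5.49-fold higher in MFN2 cKO in L/Z at PD 52. At the same stage and genotype the ratio was higher at PD 52 than at PD 24 in 4 of 4 pairs. Both statements were made after the values were seen and were given no test.

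**Figure D4:**
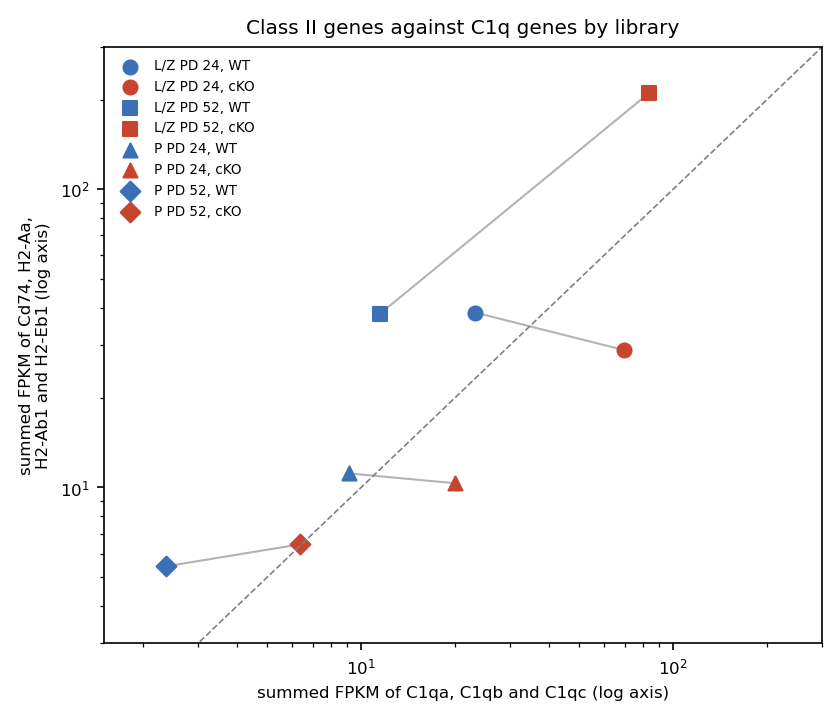
Summed FPKM of Cd74, H2-Aa, H2-Ab1 and H2-Eb1 against that of C1qa, C1qb and C1qc in the 8 libraries, both on log axes, with a grey line from MFN2 WT (blue) to MFN2 cKO (red) in each pair and a dashed line where the sums are equal. The grey lines run to the right in the 4 pairs, and only the line of L/Z at PD 52 also rises steeply, to 210 FPKM of class II genes.

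The 2 chains of I-A are made as a pair, yet their genes did not keep one ratio across the stages. The FPKM of H2-Ab1 over that of H2-Aa was 1.16 to 3.05 in the 4 L/Z libraries and 7.82 to 9.40 in the 4 P libraries. In MFN2 WT L/Z it was 2.70 at PD 24 (95% counting interval 2.18 to 3.36) and 3.05 at PD 52 (2.36 to 3.97), and in MFN2 WT P it was 8.35 (5.43 to 13.4) and 8.85 (4.70 to 18.4). The P ratios rest on 11 to 24 reads of H2-Aa, and how many other gene pairs differ in this way between the stages was not counted. H2-Eb1 over H2-Aa ran from 1.24 to 2.31 in L/Z and from 1.15 to 2.90 in P. Cd74 over H2-Aa ran from 3.67 to 6.55 in L/Z and from 2.88 to 6.65 in P. Within C1q the ratio of C1qa to C1qb was 0.636 to 1.22 in L/Z and 0.426 to 1.29 in P.

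H2-Eb1 overlaps the antisense gene Gm20513 by 2204 bases of its span and Csf1r the antisense gene Hmgxb3 by 873 bases. The counting is not stated to use strand, so reads there cannot be told apart. Gm20513 was at 0 to 1.40 FPKM and Hmgxb3 at 7.77 to 11.9 FPKM.

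Other genes of macrophages and of antigen presentation were read from fixed lists. Of 30 other macrophage and monocyte genes 20 passed the minimum, of which 8 were lower in P and 0 higher. None was called for genotype, with a median difference of 0.70 and 18 of 20 above 0, beside 42.3% of all genes tested. Lyz2, the lysozyme of myeloid cells, was at 8.69 and 5.28 FPKM in MFN2 WT L/Z and at 38.0 and 62.5 FPKM in MFN2 cKO L/Z. In P Lyz2 was at 6.10 and 0.947 FPKM in MFN2 WT and at 15.8 and 8.17 FPKM in MFN2 cKO, with a genotype difference of 2.21 ± 0.32 (adjusted p = 0.0996). Ctss, the cathepsin that trims the invariant chain, was higher in MFN2 cKO in 4 of 4 pairs (1.63 ± 0.27, adjusted p = 0.151) and lower in P (-1.95 ± 0.21, adjusted p = 0.00333).

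The most abundant genes of that list did not all follow the 10 genes. Aif1 was at 7.76 to 215 FPKM, with the MFN2 cKO library below its WT pair in 3 of 4 pairs (genotype difference -0.71 ± 0.34, adjusted p = 0.758), and it was higher at PD 52 (1.92 ± 0.31, adjusted p = 0.0165). That age call, like all others, was lost without the MFN2 cKO P pair. Fcgr3, an Fc receptor, was at 7.58 to 17.7 FPKM and not called for stage (0.44 ± 0.19, adjusted p = 0.131) or genotype (0.19 ± 0.19, adjusted p = 0.893). The summed level of the 30 genes was 72.2 to 184 FPKM in MFN2 WT and 78.5 to 384 FPKM in MFN2 cKO. In MFN2 WT at PD 52 Aif1 alone made up 156 of 184 FPKM in L/Z and 70.9 of 98.6 FPKM in P. In MFN2 cKO at PD 24 it made up 32.7 of 169 FPKM in L/Z and 7.76 of 78.5 FPKM in P. The ratio of this sum between genotypes therefore depends on Aif1 and does not describe the other genes of the list.

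Of 19 other genes of the class II pathway 12 passed the minimum, and for genotype 0 were called, with a median difference of 0.34. For stage 3 were higher in P and 2 lower. The 4 most abundant were the lysosomal proteases Ctsl, Lgmn, Ctsd and Ctsb, which many cell types make. Ctsl was higher in P (1.67 ± 0.36, adjusted p = 0.0148), at 39.2 and 53.9 FPKM in MFN2 WT P and at 18.6 and 4.93 FPKM in MFN2 WT L/Z. H2-Eb2 was at 0 in the 8 libraries.

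Of 17 class I pathway genes 16 passed the minimum, and 0 were called for genotype (median 0.17), 1 was higher in P and 4 were lower at PD 52. H2-K1, a class I heavy chain, was at 52.6 and 22.4 FPKM in MFN2 WT L/Z and at 68.9 and 35.6 FPKM in MFN2 WT P at PD 24 and PD 52, and it fell by 0.94 ± 0.14 with age (adjusted p = 0.0150). No gene was called for age without the MFN2 cKO P pair. Calr, Pdia3 and Canx, which help to fold many glycoproteins besides class I chains, were at 185 to 251, 133 to 198 and 38.0 to 57.5 FPKM and were not called for stage, genotype or age.

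Of 17 other complement genes 14 passed the minimum, of which 6 were lower in P and 1 was higher. None was called for genotype, where 12 of 14 were above 0, beside 42.3% of all genes tested, and the median was 0.47. Serping1, the inhibitor of C1, was at 23.9 and 8.71 FPKM in MFN2 WT L/Z and at 49.8 and 41.5 FPKM in MFN2 cKO L/Z, and was lower in P (-2.59 ± 0.23, adjusted p = 0.00206). C1s1, a protease of the C1 complex, was at 8.93 and 1.88 FPKM in MFN2 WT L/Z and at 21.5 and 9.01 FPKM in MFN2 cKO L/Z, with a genotype difference of 1.35 ± 0.17 (adjusted p = 0.0600). Clu, which Sertoli cells also make and whose gene is on that list too, was higher in P (2.57 ± 0.50, adjusted p = 0.0105) and C1qbp, which is a mitochondrial protein, was at 7.93 to 16 FPKM.

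Of 19 growth factors and chemokines of macrophages 14 passed the minimum, with a median of 0.94 for genotype and 0 called. Above 0 for genotype were 14 of 14, beside 42.3% of all genes tested. For stage 8 were lower in P. Ccl2, the main attractant of monocytes, was at 2.98 and 0.587 FPKM in MFN2 WT L/Z and at 15.5 and 7.81 FPKM in MFN2 cKO L/Z (genotype difference 1.77 ± 0.29, adjusted p = 0.148). Ccl7 and Ccl4 differed by 1.61 ± 0.39 and 1.04 ± 0.20 (adjusted p = 0.320 and 0.197), and Csf2ra by 0.06 ± 0.17.

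Markers of other cell types differed between the genotypes beside the 10 genes, and their part in those differences was not tested. Of 11 Leydig cell genes 4 were called higher in MFN2 cKO and 0 lower, with a median of 1.44 and summed FPKM of 48.4 to 299 in MFN2 WT and 126 to 703 in MFN2 cKO. With a pair left out, 0 to 2 of all genes tested were called for genotype, so these 4 calls did not all hold there. Cyp17a1, an enzyme of androgen synthesis, rose by 2.58 ± 0.18 (adjusted p = 0.0143). The Leydig sum was 2.35-fold to 3.91-fold higher in MFN2 cKO in the 4 pairs. The 12 spermatid genes had 0 called for genotype and a sum ratio of cKO to WT of 0.181 in L/Z at PD 24, 1.83 in L/Z at PD 52, 0.101 in P at PD 24 and 0.459 in P at PD 52.

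Dcn, a matrix proteoglycan on the peritubular list, was at 16.4 and 4.07 FPKM in MFN2 WT L/Z and at 54.7 and 44.4 FPKM in MFN2 cKO L/Z, while Acta2, of smooth muscle, had a genotype difference of -0.10 ± 0.26. Hbb-bs, a haemoglobin chain, was at 32.3 FPKM in MFN2 cKO L/Z at PD 24 and at 1.87 FPKM or less in the other 7 libraries. The 7 erythroid genes summed to 59.7 FPKM in that library, which had 1.66-fold the summed FPKM of the 10 genes of its MFN2 WT pair.

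Lymphocytes and other leukocytes left few reads. The 16 genes of T, B and NK lymphocytes summed to 4.11 to 5.49 FPKM in MFN2 WT and 4.71 to 11.2 FPKM in MFN2 cKO, with Ncr1 at 0 in the 8 libraries. The 16 genes of dendritic cells, neutrophils and mast cells summed to 3.31 to 5.25 FPKM in MFN2 WT and 3.94 to 6.51 FPKM in MFN2 cKO, with S100a8 and Fcer1a at 0. For both lists 0 genes were called for genotype. Ighm, the heavy chain of IgM, was at 3.32 and 3.26 FPKM in the MFN2 cKO L/Z libraries and at 1.04 FPKM or less in the other 6. The 10 endothelial genes summed to 5.44 to 10.6 FPKM, the 12 Sertoli genes to 36.7 to 963 FPKM and the 12 spermatogonial genes to 55.6 to 197 FPKM, with 0 called for genotype in each.

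**Figure D5:**
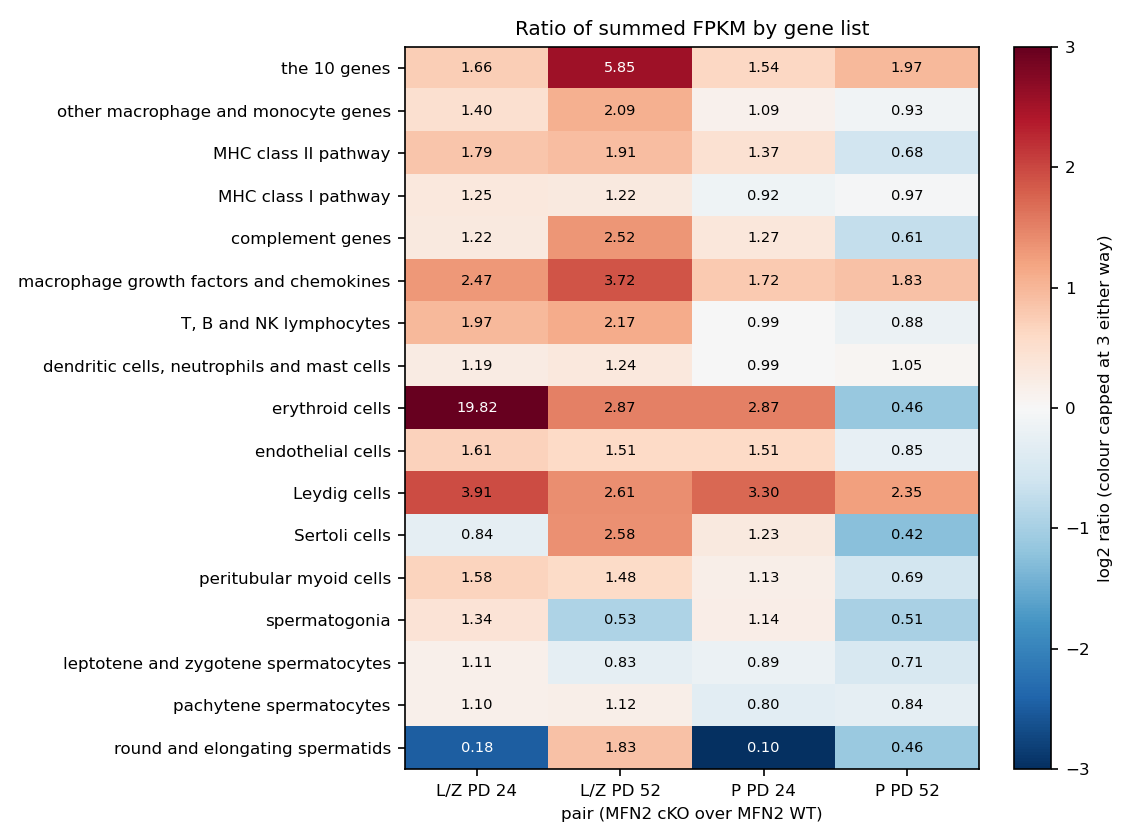
Ratio of summed FPKM in MFN2 cKO to MFN2 WT for the 10 genes and 16 other gene lists in the 4 pairs, printed in each cell and coloured by its log2. The 10 genes reach 5.85 in L/Z at PD 52, the Leydig list lies between 2.35 and 3.91, and the spermatid list is at 0.10 in P at PD 24. The sum of other macrophage and monocyte genes depends on Aif1, which did not follow the 10 genes.

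Last, the pattern of the 10 genes over the 8 libraries, as the mean of their centred log2(FPKM + 1), was set against 10502 other protein-coding genes with a mean FPKM of at least 2. The Pearson correlation of the 10 genes with their own mean ran from 0.862 for Cd68 to 0.964 for C1qb, and is raised because each gene is part of that mean. The 10 most like genes were Upf3b, Adgrl2, Pltp, Ctss, Emp1, Gsn, Unc93b1, Actb, Tgfbi and Sik1. Their correlations were 0.937 to 0.979 over 8 libraries that share stage, age and genotype, and are high by selection from the 10502 genes. Upf3b and Adgrl2 moved over a narrow range, from 4.30 to 9.39 FPKM and from 2.90 to 4.61 FPKM. Pltp, Ctss, Gsn and Tgfbi had a wide one, with Gsn from 7.15 FPKM in MFN2 WT P to 153 FPKM in MFN2 cKO L/Z at PD 52.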

How the data were processed

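RNA from 8 libraries of purified spermatocytes was sequenced as paired-end reads, and the authors made FPKM values per gene with Novomagic, as deposited. Gene lengths were deposited beside them. The submitters' processing notes name CASAVA 1.4, Bowtie 0.12.2, mm8 and mm9, but the listed coordinates are those of GRCm38. FPKM times length fell on whole multiples of 1 step for 100.0% of values (tolerance 0.01 reads), which gave the reads and 95% Clopper-Pearson or Poisson intervals. These cover counting error only.

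Differences were tested with limma 3.58.1 in R 4.3.3 (moderated test with trend) on log2(FPKM + 1), with a minimum of FPKM above 1 in any library. The pair was a block (3 residual degrees of freedom, 2 for genotype by age), and calls were made at an adjusted p under 0.05. P-values measure the spread between pairs, since each group had 1 library. A fold change on this scale understates that of low genes. Alternatives were a pseudocount of 0.1, no filter, protein-coding genes, scaling again by medians of ratios, limma-voom on the recovered reads, no block and each pair left out. The genes of that scaling (FPKM above 1 in the 8 libraries) were chosen after seeing the data, since over genes above 0 it is the authors' own.

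The 10 genes and the lists were chosen with earlier results of these data known. Named besides were Mfn2, up to 4 genes of highest mean FPKM per list and the 10 most like genes. H2-Eb2, Ncr1, S100a8, Fcer1a, Gm20513 and Hmgxb3 were named after their values were seen.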

Additional observations from a re-analysis of the deposited data

Results flagged for a closer look

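In all, 3 results moved in opposite directions in 2 sets of libraries. The genotype difference of H2-Eb1 was below 0 in both pairs of PD 24 and above 0 in both pairs of PD 52, and the means differed by 1.88 on the log2(FPKM + 1) scale. H2-Ab1 did the same, with means that differed by 1.21. The test of genotype by age gave these genes adjusted p of 0.275 and 0.454 in limma, so neither passed, and in limma-voom H2-Eb1 passed (0.0110) and H2-Ab1 did not (0.127). The age difference of Adgre1 was below 0 in both MFN2 WT pairs and above 0 in both MFN2 cKO pairs, with means that differed by 0.47. The genotype by age difference of Adgre1 has the same value. Its limma test, with stage and age as the block and not stage and genotype, gave an adjusted p of 0.610. The counting intervals included 0 for 3 of the 4 age differences of Adgre1 (all but MFN2 cKO L/Z), for H2-Eb1 in both pairs of PD 24 and for H2-Ab1 in both P pairs.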

How the results depend on the processing

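Few reads limit the precision of genes at low level, such as H2-Aa in P with 11 to 24 reads and C1qc with 5 in its lowest library. With 1 library a group, the spread between animals cannot be had. The 10 stage differences kept their direction under the 10 alternatives, and the cause of lost calls was not tested.

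Genes called for genotype (29) became 7 with a pseudocount of 0.1, 0 with no filter, 71 over protein-coding genes, 114 with limma-voom and 3 without the block, and 0 to 2 with a pair left out. Of the 10 genes limma-voom called 3, and 0 were called with any pair left out. Genes called for age (3669) became 791 with no filter and 1 without the block, and 0 to 4905 with a pair left out (0 without the MFN2 cKO P pair, 1048 without MFN2 WT L/Z and 1505 without MFN2 cKO L/Z), of which 0 to 2 were among the 10 genes. Genes called for stage (6013) became 3010 with no filter and 1145 without the block, where 75.8% of calls were higher in P in place of 43.8%, and 2369 to 5953 with a pair left out, with 2369 without MFN2 WT at PD 24 and 3119 without MFN2 cKO at PD 52. Of the 10 genes 2 were called for stage with no filter, 1 without the block, 8 to 9 with a pair left out and 9 (not H2-Ab1) with a pseudocount of 0.1. Genes called for genotype by age (3) became 74 with a pseudocount of 0.1, 0 with no filter, 0 with further scaling, 204 over protein-coding genes and 624 with limma-voom, which called 3 of the 10, and 0 with any pair left out.

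Genes at least 2-fold higher in MFN2 cKO became 1257, 1498, 667 and 1694 with a pseudocount of 0.1 and 349, 458, 116 and 237 over protein-coding genes, in the order L/Z at PD 24, L/Z at PD 52, P at PD 24 and P at PD 52. The median of the 10 genes in P at PD 52 became 1.30 with a pseudocount of 0.1.

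With a pair left out, differences changed sign as follows. For genotype the range was -0.18 to 0.76 for Cd74 and -0.18 to 0.60 for H2-Ab1, both negative without the L/Z pair of PD 52. For age it was -0.66 to 0.62 for Cd74, -0.18 to 0.77 for H2-Aa, -0.37 to 0.57 for H2-Ab1, -0.17 to 1.10 for H2-Eb1 and -0.00022 to 0.27 for Adgre1, each negative without the MFN2 cKO L/Z pair. For genotype by age it was -0.17 to 1.20 for Csf1r, -0.10 to 1.79 for C1qa, -0.61 to 1.07 for C1qb and -0.44 to 1.27 for C1qc, negative without the L/Z pair of PD 52 and, for C1qb, also without the P pair of PD 24 (-0.04). No paired analysis by replicate number was possible because each group has 1 library.

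The further scaling moved the median of all genes in the stage fit from -0.04 to -0.11 and kept the direction of the 10 genes in the 4 fits.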

Other observations

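Some chemokine and class I genes were lower at PD 52, where 5.41% of all genes were. Without the MFN2 cKO P pair no gene was called for age, so the age calls given here were lost in that fit. Of 14 growth factors and chemokines of macrophages, 5 were lower at PD 52 and 0 higher. Ccl7 was at 3.17 and 16.4 FPKM in the MFN2 WT and MFN2 cKO L/Z libraries of PD 24 and at 0.751 and 11.5 FPKM in those of PD 52, and fell by 1.24 ± 0.26 over the 4 pairs (adjusted p = 0.0288 in limma). Ccl2 fell by 0.94 ± 0.23 (adjusted p = 0.0416) and Csf2ra, a receptor chain for GM-CSF, by 0.80 ± 0.18 (adjusted p = 0.0331). Of 16 class I pathway genes, the 4 that were lower at PD 52 were H2-K1, H2-D1, H2-Q4 and Tap1, of which the last 3 were named after their values were seen. H2-D1, H2-Q4 and Tap1 fell by 1.40 ± 0.26, 1.38 ± 0.26 and 1.07 ± 0.20 (adjusted p = 0.0219, 0.0219 and 0.0231).

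Actg2, a smooth muscle actin, ran from 5.39 FPKM in MFN2 cKO P at PD 24 to 162 FPKM in MFN2 cKO L/Z at PD 52. Actg2 and Aif1 were both higher at PD 52 and lower in P, as were Prm1 and Prm2 of elongating spermatids. Over the 20 other macrophage genes past the minimum, 2 were higher at PD 52 and 1 was lower, close to the 11.9% and 5.41% of all genes.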
